A study of Mus musculus with 24 samples.

Results

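Microglia, the resident macrophages of the brain, were sampled from mice that lacked both copies, lacked a single copy or kept both copies of 3110043O21Rik, the mouse ortholog of C9orf72, and the libraries also held RNA of myelin, the membrane sheath that oligodendrocytes wrap around axons. The results below concern 9 transcripts of myelin and oligodendrocytes, Mbp, Mobp, Mog, Mag, Cldn11, Ermn, Bcas1, Plekhb1 and Lpar1, out of 20636 genes in the expression tables. They were selected on their TPM values across genotypes and ages and on their variation together across libraries, as a list of gene symbols drawn up with earlier results of these data in view. Their levels and their joint variation are therefore given as a description, and the tests of genotype come from fits over all genes and lend no independent support. A transcript was compared between genotypes when its mean over the 12 libraries of an age was at least 1 TPM (transcript abundance scaled to gene length and to a fixed library total). At each age 8 of the 9 passed, and Mag did not.

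Homozygous knockout (HOM), heterozygous knockout (HET) and wild-type (WT) mice of the C57BL/6J strain were compared at 17 and at 3 months, with 4 libraries in each of the 6 groups and 24 in all. Neither the making of the knockout allele nor the sex of the animals is stated in the labels. Per the labels' protocols, meninges were taken off, a papain digest gave single cells, magnetic beads depleted myelin, and CD11b-positive cells, mainly microglia and other myeloid cells, were then captured magnetically. All groups went through the same myelin removal. Single libraries are named by genotype and animal number. The labels do not link these numbers to their own replicate numbers, and p-values measure the spread between these libraries.

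Oligodendrocytes move the mRNA of Mbp, the basic protein that compacts the sheath, out into the growing myelin, where it is translated beside the membrane. Myelin fragments can therefore carry Mbp and Mobp mRNA without the nucleus of the cell that made it. Microglia clear myelin debris by phagocytosis, and myelin is also known to come along when brain tissue is dissociated. Myelin RNA carried along beside the cells and myelin RNA that the cells had taken up cannot be told apart in these libraries. In bulk RNA, fewer cells of a type and less RNA per cell cannot be told apart.

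Libraries held 16.7 to 46.4 M alignments. At 17 months HOM libraries held 40.7 to 46.4 M, HET libraries 30.6 to 37.1 M and WT libraries 16.7 to 35.7 M. At 3 months these were 30.6 to 33.8, 26.3 to 28.9 and 21.8 to 28.4 M in the same order. Each HOM library thus held more alignments than each HET and WT library of its age. Depth and genotype cannot be told apart in the HOM comparisons. The targeted gene was at 0.036 ± 0.016 TPM in HOM, 7.20 ± 1.53 TPM in HET and 14.9 ± 1.48 TPM in WT libraries at 17 months (SD, n = 4 each), and at 0.139 ± 0.092, 9.73 ± 1.75 and 22.8 ± 2.23 TPM in the same order at 3 months. Microglial markers were abundant throughout, with C1qa between 9025 and 12809 TPM. By 4 Y-linked genes, 3 HOM, 0 HET and 1 WT animals were male at 17 months, and 2 HOM, 4 HET and 1 WT animals were male at 3 months. At 3 months 1 library, HET-8304, stood apart in the myelin transcripts and in other brain cell types, and the results that rest on it are given with and without it.

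The promoters of 3 of these genes are shown because they span the range of a motif bound by the SOX family, to which the oligodendrocyte factor Sox10 belongs. The RefSeq promoter table, on build GRCm38.p6, matched 7 of the 9 genes, and the 200 bases from 250 to 51 before the annotated start were searched on both strands for ACAANG (the SOX core, capitals below, read as CNTTGT on the other strand), CTGGNAC (the core bound by the myelin factor Myrf) and CANNTG (the E-box of factors such as Olig2, also in capitals). Mobp, a compact-myelin protein, has 6 SOX cores at chr9:120149492-120149691 on the plus strand. Ermn, which encodes the cytoskeletal protein ermin of mature oligodendrocytes, has 2 at chr2:58052915-58053114 on the minus strand. Plekhb1, a pleckstrin homology domain protein, has 0 and a single E-box at chr7:100662445-100662644 on the minus strand, the window nearest its annotated gene start. Another Plekhb1 window, at chr7:100657016-100657215, has 1 SOX core, 1 Myrf core and 0 E-boxes and is not printed.
Mobp: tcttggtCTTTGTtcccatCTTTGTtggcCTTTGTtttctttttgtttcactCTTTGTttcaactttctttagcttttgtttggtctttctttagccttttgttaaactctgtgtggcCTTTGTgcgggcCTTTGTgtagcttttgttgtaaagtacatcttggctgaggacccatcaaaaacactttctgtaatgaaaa
Ermn: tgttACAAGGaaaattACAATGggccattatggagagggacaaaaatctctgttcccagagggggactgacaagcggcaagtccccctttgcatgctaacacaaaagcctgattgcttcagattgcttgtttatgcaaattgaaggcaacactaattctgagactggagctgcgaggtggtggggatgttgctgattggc
Plekhb1: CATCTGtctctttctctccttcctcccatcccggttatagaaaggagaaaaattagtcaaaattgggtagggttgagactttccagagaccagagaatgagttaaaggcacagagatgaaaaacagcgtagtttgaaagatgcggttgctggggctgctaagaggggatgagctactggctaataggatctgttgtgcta
None of the 3 windows printed holds the Myrf core, and no 2 matches overlap. Other matched genes do hold it, with 1 match at Mog, 2 at Mag and 1 at Lpar1 in the window nearest the annotated gene start. Cldn11 holds none of the 3 motifs. Among 32851 promoters of the same length, 31% hold at least 1 SOX core, 13.2% the Myrf core and 59% an E-box. A match of letters is a description and not a site.

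On GRCm38 other members lie at chr17:37010743-37023398 (Mog), chr7:30899176-30914873 (Mag), chr3:31149920-31164324 (Cldn11), chr2:170346991-170427845 (Bcas1) and chr4:58435255-58553898 (Lpar1). Exons of Mobp overlap those of Gm38642 on the same strand, so reads there could be split whether or not counting used strand. Exons of Ermn overlap those of Galnt5, and exons of Bcas1 those of Bcas1os1 and Bcas1os2, on the other strand. Reads of Ermn and Bcas1 there could be split if counting ignored strand, which the labels do not state.

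Mbp dominated the set in every library. It supplied between 79.8% and 83.8% of the summed TPM of the 9 transcripts, and the 9 together made up 0.0368% to 0.856% of all listed TPM. Across the 24 libraries Mbp ranged 22.6-fold, between 263 TPM in HOM-8285 at 3 months and 5954 TPM in WT-7943 at 17 months. Mobp ranged 27.0-fold, Bcas1 30.8-fold, Plekhb1 17.4-fold, Lpar1 21.9-fold, Ermn 23.3-fold and Cldn11 12.9-fold over the same libraries. WT-7943 held the highest value of Mbp, Mobp, Mog, Ermn, Bcas1, Plekhb1 and Lpar1, and WT-7783 that of Cldn11.

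**Figure D1:**
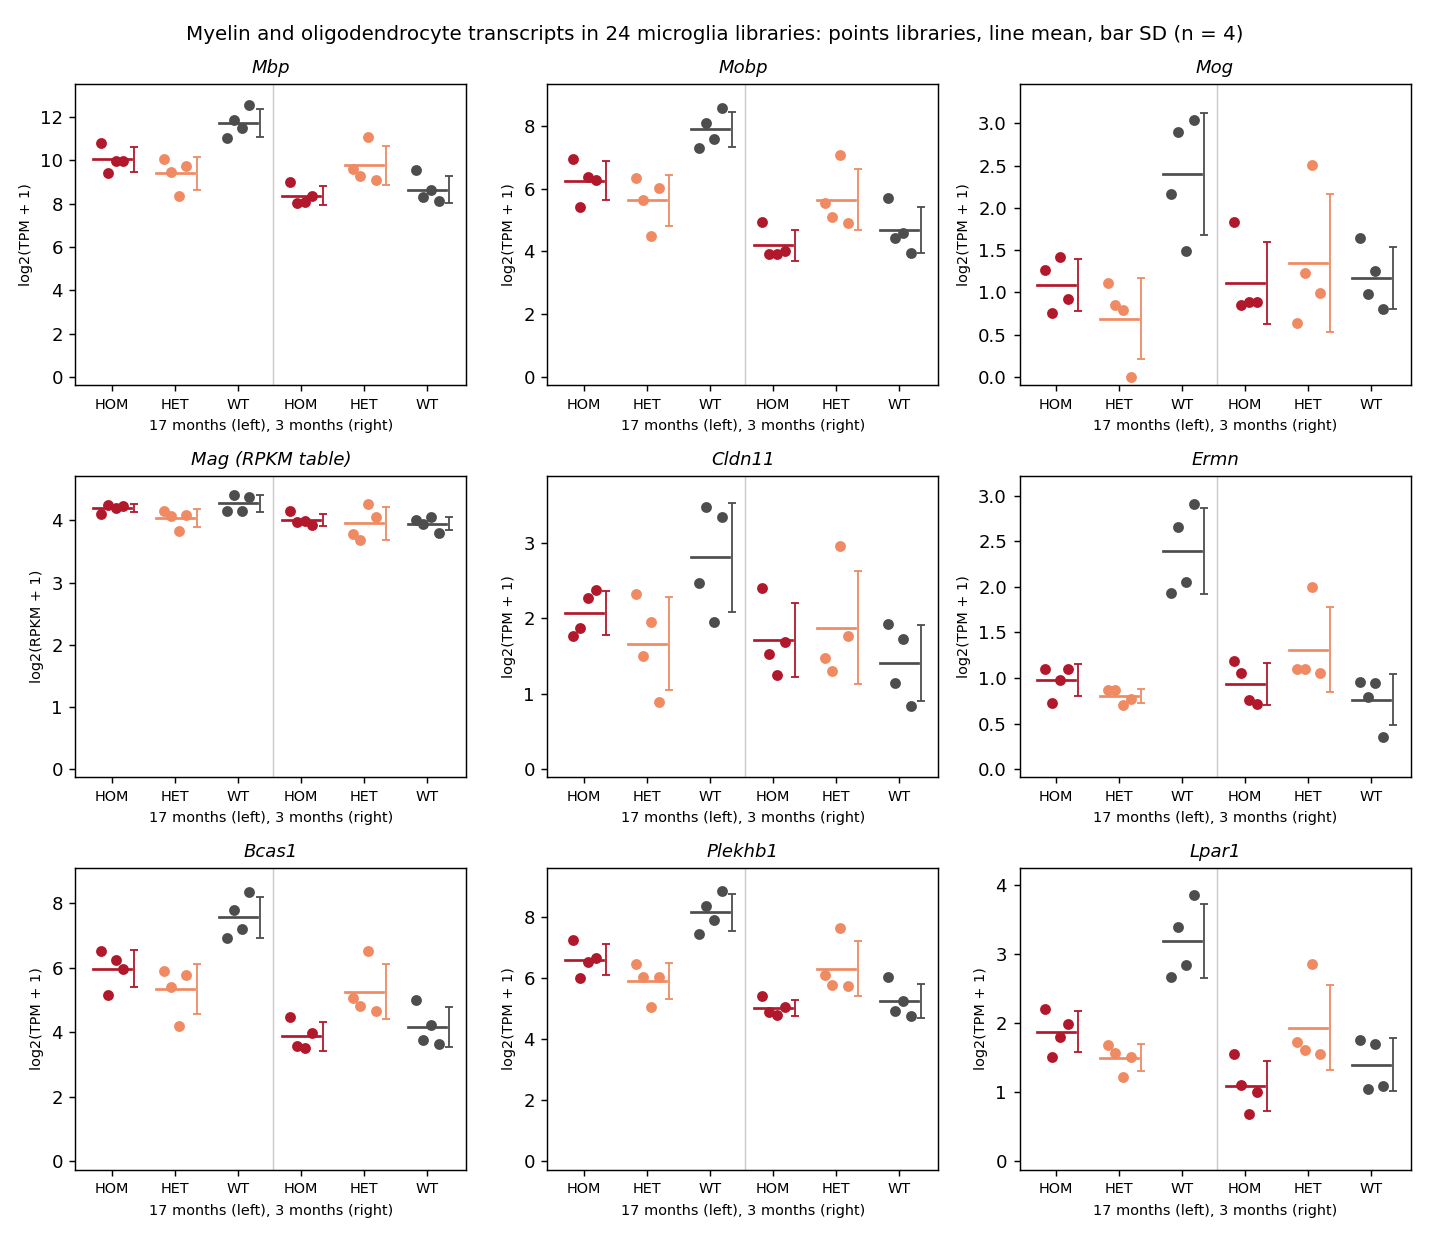
Levels of the 9 myelin transcripts on the log2(TPM + 1) scale (Mag on the log2(RPKM + 1) scale), with HOM, HET and WT libraries at 17 months on the left of each panel and at 3 months on the right. Points are libraries, lines the mean and bars the SD of 4 libraries. The 4 WT libraries at 17 months, between 2055 and 5954 TPM of Mbp, stand above all HOM and HET libraries of that age, and HET-8304, with 2179 TPM, stands above the other libraries at 3 months.

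At 17 months the levels of the myelin transcripts were lower in HOM and HET libraries than in WT libraries. Mbp was at 1793, 688, 1008 and 1008 TPM in HOM libraries, at 1069, 708, 322 and 852 TPM in HET libraries and at 2055, 3725, 2906 and 5954 TPM in WT libraries. Every WT library lay above every HOM and HET library. Mobp was at 122, 42.0, 80.9 and 76.7 TPM in HOM, at 80.7, 49.3, 21.5 and 63.1 TPM in HET and at 155, 273, 189 and 379 TPM in WT libraries. The groups again did not overlap with WT, while HOM and HET overlapped each other. For 7 of the 8 transcripts compared, all HOM libraries lay below all WT libraries, as did 4.05% of the 11792 genes compared, and the same held for 7 of the 8 in HET, against 3.25% of genes.

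Ermn, Lpar1, Bcas1 and Plekhb1 followed the same order. Ermn was at 1.14, 0.655, 0.975 and 1.14 TPM in HOM, at 0.819, 0.825, 0.633 and 0.701 TPM in HET and at 2.81, 5.33, 3.16 and 6.51 TPM in WT libraries. Lpar1, a receptor for lysophosphatidic acid found on oligodendrocytes among other cells, was at 3.64, 1.85, 2.48 and 2.97 TPM in HOM, at 2.21, 1.98, 1.34 and 1.86 TPM in HET and at 5.37, 9.52, 6.17 and 13.4 TPM in WT libraries. Bcas1, which marks oligodendrocytes that are beginning to myelinate, was at 90.1, 34.8, 74.9 and 60.5 TPM in HOM, at 58.6, 41.4, 17.4 and 54.1 TPM in HET and at 120, 218, 145 and 320 TPM in WT libraries. All 3 were low in each HOM and HET library relative to each WT library. Plekhb1 was at 149, 63.1, 91.2 and 99.2 TPM in HOM, at 87.4, 65.0, 32.2 and 63.6 TPM in HET and at 173, 327, 239 and 458 TPM in WT libraries, without overlap between either knockout group and WT.

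Both membrane proteins of the outer sheath and its junctions were scarce. Mog, the glycoprotein of the outer myelin surface, was at 1.41, 0.685, 1.68 and 0.900 TPM in HOM, at 1.17, 0.805, 0.727 and 0 TPM in HET and at 3.47, 6.49, 1.80 and 7.23 TPM in WT libraries. The lowest WT value of Mog lay just above the highest HOM value. Cldn11, which forms the tight junctions between myelin layers, was at 2.42, 2.67, 3.85 and 4.19 TPM in HOM, at 4.00, 1.83, 2.85 and 0.848 TPM in HET and at 4.53, 10.1, 2.86 and 9.19 TPM in WT libraries. Cldn11 was the member whose knockout and WT libraries overlapped.

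In the fit over all genes (limma on log2(TPM + 1), adjusted by Benjamini-Hochberg over 11792 genes), 6 of the 8 transcripts fell in HET against WT at 17 months, where 0.237% of all genes were called lower and none higher. Mbp changed by -2.33 ± 0.39 (log2, SE, limma adjusted p = 0.0344) and Plekhb1 by -2.24 ± 0.34 (limma adjusted p = 0.0223). Lpar1 changed by -1.69 and Ermn by -1.59, each with a limma adjusted p of 0.0206. Mobp, at -2.26, and Bcas1, at -2.23, had a limma adjusted p of 0.0427. The remaining 2 were Mog, at -1.71 (limma adjusted p = 0.0634), and Cldn11, at -1.15 (limma adjusted p = 0.266). The median over the 8 was -1.97, beside -0.01 over all genes. These calls were close to the threshold: 0 of the 8 were called without HET-7794, HET-7795, HET-7796 or WT-7783 and 8 without WT-7785, while 2 were called without WT-7943 and 3 without HOM-7899 or HOM-7901. None was called when only the HET and WT libraries were fitted, when libraries were centred on their median, after quantile normalization or with no filter on low values, and all 8 changes stayed negative in each of these fits.

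In HOM against WT at 17 months, 2 of the 8 transcripts fell, where 0.246% of all genes were called lower and 0.712% in either direction. These were Ermn, at -1.41 ± 0.20 (log2, SE, limma adjusted p = 0.0349), and Lpar1, at -1.31 ± 0.24 (limma adjusted p = 0.0440). Mbp, at -1.68, Mobp, at -1.63, Bcas1, at -1.59, Plekhb1, at -1.54, and Mog, at -1.31, had limma adjusted p between 0.0580 and 0.0748, and Cldn11, at -0.73, had 0.287. The median over the 8 was -1.48, beside 0.05 over all genes. Sex differed between these groups, with 3 male HOM and 1 male WT animals. With a sex term 0 of the 8 were called, and Ermn was at -1.26 (limma adjusted p = 0.077) and Lpar1 at -1.16. In HET against WT, where 0 HET and 1 WT animals were male, 7 were called with that term. None was called in HOM against WT without HOM-7893, HOM-7899, HOM-7901, WT-7783 or WT-7943, and 1 was called without HET-7791 or WT-7782. More were called without other libraries, namely 6 without HET-7795, 5 without HET-7796 and 4 without HOM-7835. Only the HOM and WT libraries gave 6 calls, and no setting or omitted library turned a member's direction against WT at 17 months.

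No transcript was called between HOM and HET at 17 months. All 8 differences of HOM against HET were positive, between 0.17 and 0.71 with a median of 0.52 (0.07 over all genes), and 0 of the 8 passed the threshold where 1.86% of all genes did. Their smallest limma adjusted p was 0.405, and 0 of the 8 had an unadjusted p under 0.05, against 13% of all genes. The comparisons with WT share the same 4 WT libraries.

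**Figure D2:**
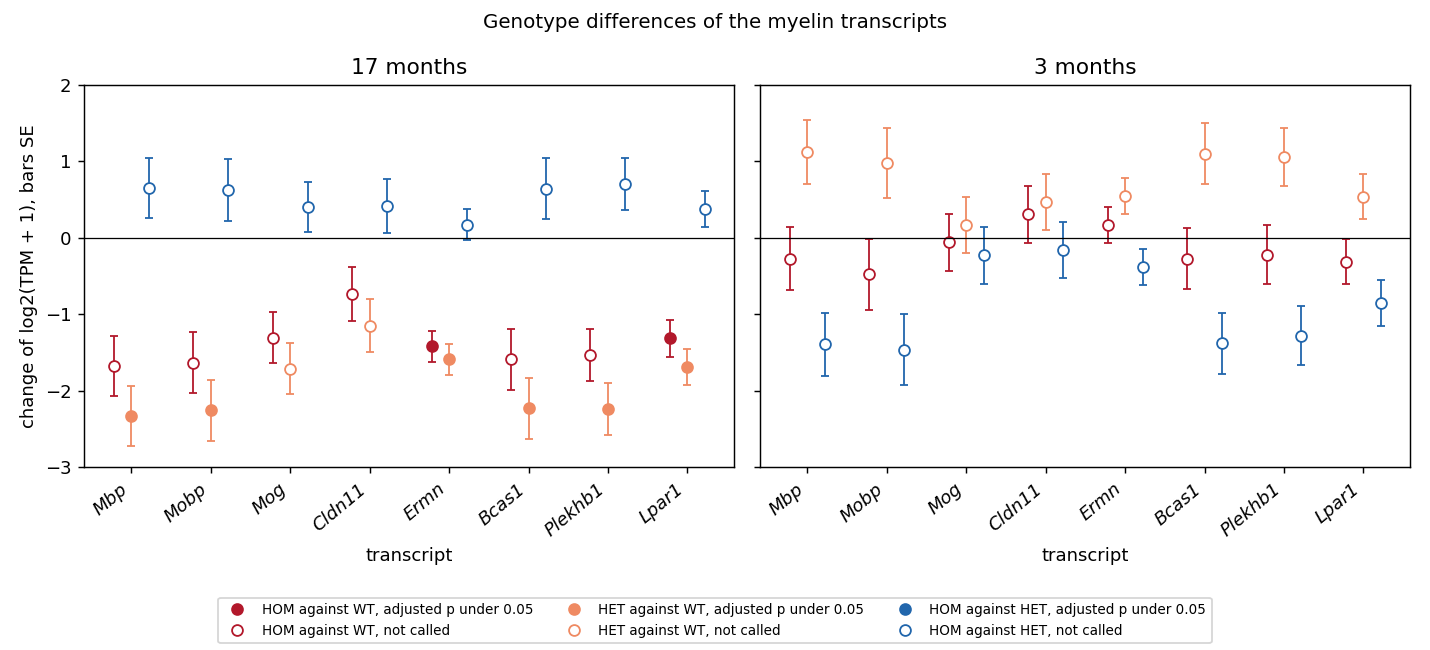
Change of log2(TPM + 1) for the 8 transcripts compared, with HOM against WT, HET against WT and HOM against HET from left to right at each transcript, 17 months in the left panel and 3 months in the right. Bars are the SE and filled points have a limma adjusted p under 0.05. At 17 months all 8 lie below 0 in both comparisons with WT, 6 filled for HET and 2 for HOM, and no point is filled at 3 months.

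The RPKM tables (reads scaled to gene length and to the alignments of the library), the second expression measure deposited, gave the same order at 17 months. Mbp averaged 194 ± 74.4 RPKM in HOM, 132 ± 60.9 RPKM in HET and 627 ± 311 RPKM in WT libraries (SD, n = 4 each). In the same fit on log2(RPKM + 1), 7 of 9 members fell in HOM against WT, where 1.94% of all genes were called lower, and 3 of 9 (Ermn, Lpar1 and Plekhb1) fell in HET against WT, where 0.152% were. Within each age and for each of the 8 transcripts, TPM and RPKM on the log2 scale correlated across the 12 libraries with r between 0.961 and 0.998.

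Mag, the glycoprotein of the myelin membrane that faces the axon, behaved differently in the 2 measures. It was listed at 0 or at no more than 5.41e-06 TPM in all 24 libraries, so no TPM comparison could be made. In the RPKM tables it averaged 17.3 ± 0.82 RPKM in HOM, 15.5 ± 1.55 RPKM in HET and 18.4 ± 1.87 RPKM in WT libraries at 17 months, and 15.1 ± 1.08, 14.7 ± 2.86 and 14.5 ± 1.17 RPKM in the same order at 3 months (SD, n = 4 each). Across the 24 libraries it varied 1.71-fold while Mbp RPKM varied 27.8-fold. Mag was not called in any comparison of the RPKM tables.

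At 3 months the order differed, with HET libraries highest on average. Mbp was at 509, 263, 271 and 327 TPM in HOM, at 776, 618, 2179 and 546 TPM in HET and at 741, 315, 394 and 276 TPM in WT libraries, the third HET value being HET-8304. HOM and WT overlapped. Every HET library lay above 3 of the 4 WT libraries, and WT-8322 lay among the HET values. Mobp was at 29.4, 14.0, 14.2 and 15.0 TPM in HOM, at 45.4, 33.3, 132 and 29.0 TPM in HET and at 50.9, 20.5, 23.1 and 14.6 TPM in WT libraries. HOM-8282 was the highest HOM library and WT-8322 the highest WT library for Mbp, Mobp, Bcas1 and Plekhb1 alike.

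None of the 8 transcripts was called by limma at 3 months in any of the 3 comparisons. In HET against WT, where 0.0432% of all genes were called, the 8 changes lay between 0.17 and 1.12 with a median of 0.77 (-0.09 over all genes), and 4 had an unadjusted p under 0.05, as did 21.6% of all genes. Ermn was the only one of the 8 whose HET libraries all lay above WT, as did 1.3% of genes. In HOM against HET, where 0.0259% of all genes were called, the 8 lay between -1.46 and -0.16 with a median of -1.06 (0.00 over all genes), 5 had an unadjusted p under 0.05 (8.55% of all genes did), and 3 (Mbp, Bcas1 and Plekhb1) had all HOM libraries below all HET ones, as did 2.85% of genes. In HOM against WT, where 0.0604% were called, they lay between -0.48 and 0.31, and 0 of the 8 had an unadjusted p under 0.05, against 19.7% of all genes.

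HET-8304 carried much of the HET level at 3 months. It held 2619 TPM of the 9 transcripts, where the other 3 HET libraries held 658 to 926 TPM. Without it the change of Mbp in HET against WT was 0.68 in place of 1.12 (limma adjusted p = 0.275 without and 0.157 with it), that of Lpar1 0.23 in place of 0.54, and that of Mog turned to -0.22. HET-8304 was also the highest of the 12 libraries for summed markers of neurons (170 TPM, the others 15.3 to 33.9), choroid plexus and ependyma (3708 TPM, the others 238 to 1026), astrocytes (602 TPM, the others 165 to 363) and endothelial and mural cells (658 TPM, the others 89.0 to 482). In HOM against HET, Mbp was at -0.95 without it in place of -1.39, Mobp at -0.99 in place of -1.46, Bcas1 at -0.96 in place of -1.38, Plekhb1 at -0.84 in place of -1.28 and Lpar1 at -0.54 in place of -0.85, while Mog turned to 0.16 and Cldn11 to 0.20. Neuronal markers were higher in the other HET libraries too. They summed to 26.3 to 33.9 TPM in the 3 HET libraries other than HET-8304, against 15.3 to 22.1 TPM in WT libraries, and in HET against WT with all 4 libraries the median was 0.98 for neurons (8 of 8 positive, 0 called) and 0.39 for astrocytes (13 of 13 positive, 0 called). The part of these cells in the myelin result was not tested.

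The genotype effect was also compared between ages. Since the ages stand in separately made tables, 17 months was not tested against 3 months directly. The levels side by side were 2055 to 5954 TPM of Mbp in WT libraries at 17 months and 276 to 741 TPM at 3 months. In HOM libraries they were 688 to 1793 TPM and 263 to 509 TPM, and in HET libraries 322 to 1069 TPM and 546 to 2179 TPM. Sex went with age in HET, where 0 animals were male at 17 months and 4 at 3 months. In WT 1 animal was male at each age. A HET effect that depends on age and one that depends on sex therefore cannot be told apart. In a fit over all 24 libraries, the HET effect at 17 months minus that at 3 months was called lower in 6 of the 8 transcripts, where 0.49% of 11436 genes were. It was -3.45 ± 0.61 for Mbp (log2, SE, limma adjusted p = 0.0114), -3.33 for Bcas1, -3.30 for Plekhb1, -3.24 for Mobp, -2.23 for Lpar1 and -2.14 for Ermn, and 5 to 7 were called with any single library left out. The HOM effect differed in the same sense for Ermn alone, by -1.58 ± 0.31 (limma adjusted p = 0.0406), where 0.0525% of genes were called lower, and that call ended in 15 of the 23 omissions of a library that kept Ermn above 1 TPM, while the other 7 transcripts had limma adjusted p between 0.150 and 0.311.

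Of the 7 other transcripts measured in TPM, 3 (Plekhb1, Mobp and Bcas1) stayed within a 1.94-fold range relative to Mbp. Across all 24 libraries Plekhb1 stood at 7.46 to 10.8 TPM per 100 TPM of Mbp, a 1.45-fold range. Mobp stood at 4.57 to 8.02 per 100 TPM of Mbp, a 1.75-fold range, and Bcas1 at 3.83 to 7.43, a 1.94-fold range. At 17 months the Plekhb1 share averaged 9.09 ± 0.64 in HOM, 8.70 ± 1.11 in HET and 8.28 ± 0.46 in WT libraries (SD, n = 4 each), so the ratio moved little where the levels of both differed several-fold. Lpar1 ranged 2.83-fold relative to Mbp, Ermn 6.48-fold and Cldn11 9.01-fold, and Mog ran between 0 and 0.506 TPM per 100 TPM of Mbp. Cnp, an enzyme of uncompacted myelin that was not a member, varied 2.08-fold across the 24 libraries and its ratio to Mbp 18.1-fold. Its smaller deviations from the group means still correlated with those of the members, at r = 0.53 at 17 months and 0.79 at 3 months in TPM and at 0.81 and 0.86 in RPKM (Pearson, n = 12 libraries each).

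**Figure D3:**
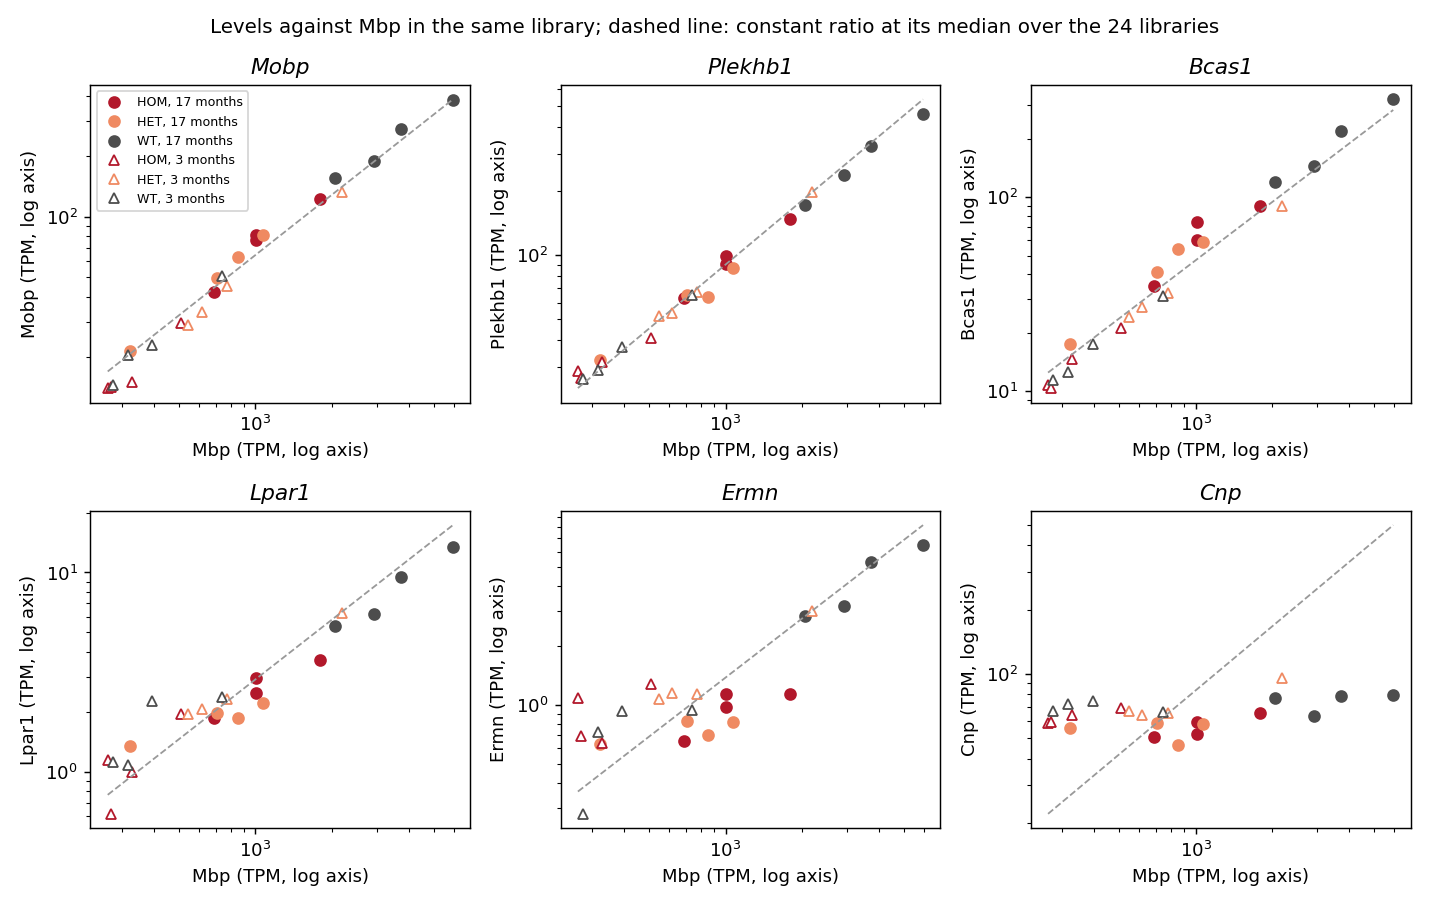
TPM of Mobp, Plekhb1, Bcas1, Lpar1, Ermn and Cnp against TPM of Mbp in the same library, both on log axes, with filled circles for 17 months and open triangles for 3 months. The dashed line is a constant ratio to Mbp at the median over the 24 libraries. Mobp, Plekhb1 and Bcas1 lie along the line within 1.94-fold, while Cnp stays between 46.1 and 95.8 TPM.

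Within genotypes the members also moved together, as the choice of list implies. Deviations of log2(TPM + 1) from the group mean correlated with the mean deviation of the other members at r between 0.43 (Cldn11) and 0.94 (Lpar1) at 17 months and between 0.90 (Ermn) and 0.98 (Bcas1) at 3 months (Pearson, n = 12 libraries each). The points share library depth and tissue preparation. Without the 2 libraries farthest from the median the ranges were 0.57 to 0.94 at 17 months and 0.78 to 0.95 at 3 months. In the RPKM tables, where Mag reached 0.70 at 17 months and 0.78 at 3 months, r of the other 8 lay between 0.48 and 0.95 at 17 months and between 0.93 and 0.99 at 3 months.

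Among 8712 genes at 5 TPM or more on average at both ages, those most like the set, by the lower r of the 2 ages (Pearson, n = 12 libraries each), included Dbndd2 (0.96), Pkp4 (0.94), Scd1 (0.94), Trp53inp2 (0.93), Qdpr (0.93), Csrp1 (0.89), Tubb4a (0.89), Mal (0.85) and Ndrg1 (0.84). Scd1 is a fatty acid desaturase, and Mal is a proteolipid of myelin. Pkp4, Scd1, Trp53inp2 and Qdpr fell in HET against WT at 17 months, with limma adjusted p of 0.0206 to 0.0241. Qdpr averaged 96.8 TPM in HOM, 85.5 TPM in HET and 170 TPM in WT libraries. Pkp4, Trp53inp2 and Qdpr fell in HOM against WT too, with limma adjusted p of 0.0409 to 0.0479. The remaining 5 were not called in HET against WT, with limma adjusted p of 0.0709 to 0.195.

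Other genes of oligodendrocytes were set beside the members, by lists chosen with earlier results of these data known. Of 17 genes of myelin structure and maintenance, 13 were compared at 17 months. In HET against WT, 1 of 13 fell, all 13 changes were negative and the median was -0.96. In HOM against WT, 0 of 13 were called, 11 were negative and the median was -0.50. Trf, the iron carrier transferrin and the most abundant of the list, was at 1214 to 1480 TPM in HOM, 1251 to 1652 TPM in HET and 1351 to 1767 TPM in WT libraries, and Cnp was at 50.7 to 65.2, 46.1 to 58.4 and 63.4 to 79.4 TPM in the same order. Neither was called on the TPM scale, while Cnp was called in HOM against WT on the RPKM scale (-0.36, limma adjusted p = 0.0399). In HOM against HET at 17 months, Ndrg1, a protein of myelin maintenance, was higher by 1.01 (limma adjusted p = 0.0291).

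Of 8 genes of myelin lipid synthesis, the 5 that were compared had median changes nearer to 0. Of the 5 compared, 0 were called against WT at 17 months in either genotype, with medians of 0.04 in HOM and -0.16 in HET. The 3 most abundant, Gltp, Elovl1 and Plcl1, changed by between -0.16 and 0.04 in both. Pllp, the myelin proteolipid plasmolipin, was higher in HOM than in HET by 0.96 (limma adjusted p = 0.0393). At 3 months 0 genes of any oligodendrocyte list were called.

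Lineage markers of oligodendrocytes outside the sheath varied in level. Among transcription factors, Sox10 was at 0.695 to 1.36 TPM in HOM, 0.0698 to 1.09 TPM in HET and 1.29 to 2.40 TPM in WT libraries at 17 months. Olig1, at 2.30 to 5.84 TPM in HOM, 1.77 to 3.40 TPM in HET and 2.96 to 10.4 TPM in WT libraries, changed by -0.53 in HOM and by -1.16 in HET against WT, and Zfp488 by 0.09 and 0.11. None of the 3 factors compared was called. Of the newly formed oligodendrocyte genes, 4 of 7 were compared and 0 were called. Its 3 most abundant genes, Itpr2, Rras2 and Fyn, lay between 7.35 and 30.1 TPM in all groups at 17 months. Of 9 precursor genes, 3 were compared and 0 were called, with Cspg5 at 3.71 to 6.87 TPM in HOM, 2.68 to 5.83 TPM in HET and 3.85 to 9.56 TPM in WT libraries. Ptprz1 changed by -0.23 in HOM and by -0.60 in HET, and Cspg4, which mural cells also express, by 0.23 and 0.58.

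Markers of other cell types differed widely in level. Neuronal genes had medians of -0.68 in HOM and -0.75 in HET against WT at 17 months, with 10 of 10 negative and 0 called. Their summed level was 26.9 to 74.1 TPM in HOM, 31.0 to 52.5 TPM in HET and 28.5 to 150 TPM in WT libraries, and WT-7783 and WT-7943, with the most Mbp, held 147 and 150 TPM. WT-7785, with 2906 TPM of Mbp, held 28.5 TPM of neuronal markers, the lowest WT value. Deviations of the neuronal list from the genotype means correlated with those of the myelin transcripts at r = 0.66 at 17 months and 0.83 at 3 months, and at 0.60 and 0.57 without the 2 libraries farthest from the median (Pearson, n = 12 libraries each). Astrocyte genes had medians of -0.04 in HOM and -0.67 in HET, with 0 of 14 called and a summed level of 291 to 532 TPM in HOM, 214 to 289 TPM in HET and 262 to 615 TPM in WT libraries. None of the markers in these lists was at 0 in all libraries.

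At 17 months endothelial and mural genes were on average higher in HOM and lower in HET than in WT libraries. Their medians were 0.47 in HOM against WT (2 of 12 called, Pdgfrb and Vtn, both higher) and -0.51 in HET against WT (0 of 12 called), and their summed level was 425 to 561 TPM in HOM, 182 to 271 TPM in HET and 295 to 379 TPM in WT libraries. In HOM against HET 10 of the 12 were called, all higher, with a median of 0.996, where 1.86% of all genes were called. Choroid plexus and ependyma genes had medians of 1.22 in HOM and 0.58 in HET against WT, with 1 of 8 called in HOM (Ccdc153), and summed to 1540 to 4384 TPM in HOM, 986 to 1404 TPM in HET and 315 to 1456 TPM in WT libraries. Neutrophil genes had medians of 2.01 and 1.36 with 0 of 7 called, and summed to 2212 to 5941 TPM in HOM, 542 to 11095 TPM in HET and 406 to 2478 TPM in WT libraries. Border-associated macrophage genes had medians of 0.37 and 0.39 with 0 of 8 called. Microglial genes had medians of -0.18 in HOM, where Gpr34 was called lower, and -0.09 in HET. Of the Schwann cell list, the myelinating cells of peripheral nerve, only Egr2, also expressed by myeloid cells, was compared, and it was not called. The summed level of this list was 7.74 to 16.9 TPM in HOM, 8.75 to 16.3 TPM in HET and 9.23 to 13.9 TPM in WT libraries at 17 months. At 3 months endothelial and mural genes had medians of -1.07 in HOM and -0.19 in HET against WT, with 0 of 12 called. Choroid plexus and ependyma genes had medians of -0.98 and -0.04 there, with 0 of 6 called. The part of any of these cells in the myelin result was not tested.

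Genes that handle lipid in phagocytes were measured in the same libraries. Of 14 compared, 0 were called against WT at 17 months, with medians of -0.15 in HOM and 0.31 in HET. Apoe, the lipid carrier, was at 10570 to 12955 TPM in HOM, 13045 to 20048 TPM in HET and 8203 to 15366 TPM in WT libraries. In HOM against HET, Lpl, a lipase, differed by -1.37 (limma adjusted p = 0.00751) and Spp1, osteopontin, by -1.42 (limma adjusted p = 0.0244). Deviations of this list from the genotype means correlated with those of the myelin transcripts at r = -0.27 at 17 months and 0.24 at 3 months (Pearson, n = 12 libraries each). Without the 2 libraries farthest from the median these were 0.31 and 0.19, so the sign at 17 months rested on those libraries.

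**Figure D4:**
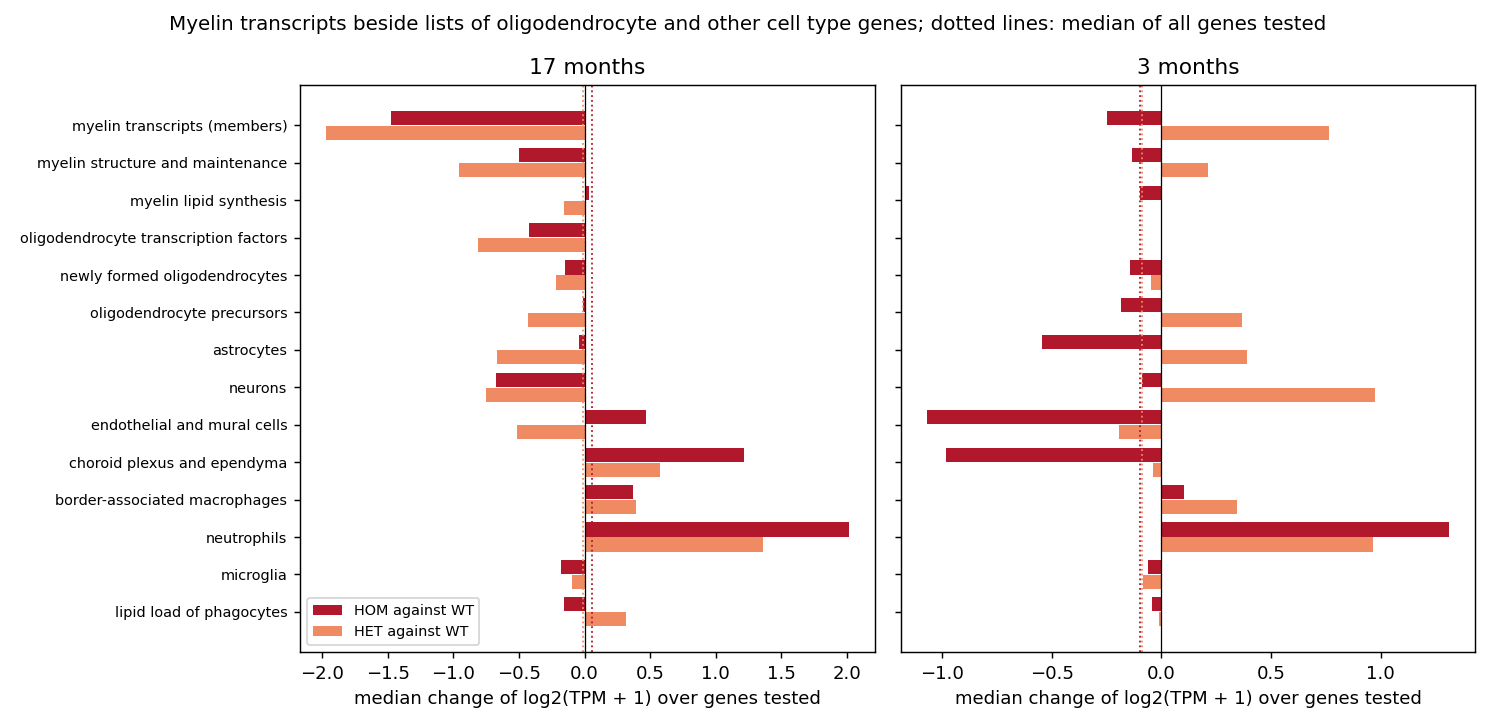
Median change of log2(TPM + 1) over the genes compared, for the 8 myelin transcripts (top) and lists of other genes, HOM above HET and both against WT, at 17 months (left) and 3 months (right). Dotted lines mark the median of all genes, and lists with under 3 genes compared have no bar. The myelin transcripts have medians of -1.48 in HOM and -1.97 in HET at 17 months and of -0.25 and 0.77 at 3 months.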

How the data were processed

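Bulk RNA-seq libraries were made from polyadenylated RNA with a stranded kit, per the labels' protocols. The build was mm10 and the tools were Salmon 0.8.2, TopHat2 2.1.1, DESeq2 and Partek 7.17.0918, per the submitters' processing notes. Which tool made which table, and the annotation, are not given in the sources used here. The authors deposited TPM for 20636 genes, in a table for each age, and these columns summed to 78.9% to 90.7% of the full TPM total, and shares are given of the TPM listed. The authors also deposited RPKM, along with the alignments of each library, in a 17-month table (19210 genes) and a 3-month table (18721 genes). Per the file headers, RPKM columns carry the genotype and an animal number and TPM columns the animal number alone, so the genotype behind every TPM comparison rests on matching animal numbers between the tables of an age. No header gives a replicate number. Animals headed hemi at 17 months were taken as heterozygous.

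Tests used log2(TPM + 1) in limma 3.58.1 (R 4.3.3), two-sided, with a trend and a mean per genotype over the 12 libraries of an age. Genes averaging at least 1 TPM were kept (11792 at 17 months, 11587 at 3 months), p was adjusted by Benjamini-Hochberg over them, and a gene was called under 0.05. Fold changes on this scale understate changes of low genes. The difference of genotype effects between ages used all 24 libraries and 11436 genes. On simulated data the fit recovered 87% of genes changed by 1 on the log2 scale at 17 months and 94% at 3 months, for HOM against WT. The changed genes were drawn from more abundant genes, which leaves out low ones such as Ermn, and noise was independent between genes. These shares therefore do not give the power for the members, which vary together. Sex was read from 4 Y-linked genes with a limit of 5 TPM. The 9 members and the 14 gene lists were chosen with earlier results of these data known. Besides the members, genes were named as the 3 most abundant and every called gene of each oligodendrocyte list, the most abundant of other lists where shown, and the 10 most like the members by correlation, except that some results are not reported here; other genes of the other lists were named where 5 or fewer were called, after their values were seen. Ugt8a, Fa2h and Gal3st1 were also named after their values were seen. Alternatives were pseudocounts, filters, centring, quantile normalization, RPKM, array weights, a sex term, fits of 2 groups and omission of each library.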

Additional observations from a re-analysis of the deposited data

Results flagged for a closer look

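At 3 months HET-8304 stood far above the other 3 HET libraries in 6 transcripts and in their sum. It had 2179 TPM of Mbp (the others 546 to 776), 132 TPM of Mobp (29.0 to 45.4), 89.7 TPM of Bcas1 (at most 32.1), 197 TPM of Plekhb1 (51.7 to 67.3), 6.25 TPM of Lpar1 (1.95 to 2.31) and 3.01 TPM of Ermn (1.07 to 1.14), and the 9 transcripts summed to 2619 TPM (658 to 926). In the HOM group at 3 months, HOM-8282 stood apart with 29.4 TPM of Mobp (14.0 to 15.0) and 2.58 TPM of Mog (0.805 to 0.843). These were 9 of 54 sets of 4 libraries tested with Dixon's criterion, which flags about 1 in 20 by chance, and the transcripts are not independent of each other.

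The genotype effect differed between ages for 6 transcripts in HET and 1 in HOM. Relative to WT, the HET effect at 17 months minus that at 3 months was -3.45 for Mbp, -3.33 for Bcas1, -3.30 for Plekhb1, -3.24 for Mobp, -2.23 for Lpar1 and -2.14 for Ermn on the log2 scale, with limma adjusted p between 0.00794 and 0.0243. The HOM effect differed by -1.58 for Ermn (limma adjusted p = 0.0406). With HET-8304 left out, 5 transcripts were still called for HET. By Y-linked genes 0 HET animals were male at 17 months and 4 at 3 months, so age and sex cannot be told apart in HET.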

How the results depend on the processing

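Against WT at 17 months, no transcript changed direction under any alternative, but the number called did. In HOM against WT, 2 of 8 were called, against 1 with a pseudocount of 0.1 TPM and 1 with no filter on low values. With a mean of at least 5 TPM 0 were called. That filter left out the 2 called members, Ermn and Lpar1, along with Mog and Cldn11. Other counts were 5 with median centring, 6 with quantile normalization, 7 of 9 with the RPKM tables, 8 with array weights and 0 with a sex term. A fit of only the 2 groups compared called 6, and omission of a library gave 0 to 6. In HET against WT, 6 of 8 were called, against 0 with no filter, median centring, quantile normalization or only the 2 groups compared, 3 with the RPKM tables and 0 to 8 with a library left out. At 3 months 0 were called, except 4 in HET against WT and 5 in HOM against HET with array weights, a setting that called 3507 and 3074 of 11587 genes. The HET effect between ages called 4 to 8 under every setting. The HOM effect called 1, against 0 with a pseudocount of 0.1 TPM, a mean of at least 5 TPM or the RPKM tables, 7 with array weights and 0 to 1 with a library left out. Apart from members left out by a filter, the cause of these shifts was not tested.

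Changes that turned their sign were all uncalled. Ermn in HOM against HET at 17 months was -0.115 with quantile normalization. At 3 months Mog in HOM against WT was 0.0539 with median centring and 0.0905 with quantile normalization, Mog was -0.412 in HET against WT and 0.28 in HOM against HET with array weights, and Cldn11 in HOM against HET was 0.0395 with array weights. With a library left out at 3 months, HOM against WT ran between -0.481 and 0.0237 for Mbp, -0.301 and 0.0988 for Mog, -0.472 and 0.0068 for Bcas1 and -0.379 and 0.0454 for Plekhb1, the upper ends all without WT-8322. HET against WT ran between -0.219 (without HET-8304) and 0.407 for Mog, and HOM against HET between -0.472 and 0.16 for Mog and between -0.389 and 0.198 for Cldn11, the upper ends without HET-8304.

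Counts over all genes moved widely. Genes called at 17 months numbered 84 in HOM against WT (5 to 1858 over the settings, 1 to 368 with a library left out), 28 in HET against WT (0 to 659, 0 to 239) and 219 in HOM against HET (45 to 1136, 104 to 246). At 3 months they numbered 7 in HOM against WT (2 to 1836, 2 to 118), 5 in HET against WT (1 to 3507, 3 to 467) and 3 in HOM against HET (1 to 3074, 3 to 66). Between ages they numbered 29 for HOM (26 to 3321, 1 to 667) and 79 for HET (44 to 3045, 19 to 332). No paired analysis was possible because the columns carry animal numbers and no replicate numbers. Mog was listed at 0 TPM in 1 HET library at 17 months, and no counts were used that would set its limit.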
